A study of Rattus norvegicus with 10 samples.

Results

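The DNA replication and cell cycle genes described here serve DNA replication and cell division, and the RNA of many of them, but not of all, is made mainly in dividing cells. They were chosen as 51 gene names, of which 50 came from a list and 1, Rfc1, from the added condition that a symbol reads Mcm or Rfc followed by a digit. Of the 51, 42 had a probe set named for that gene alone, among 10412 such genes on the array, and 37 of the 42 were bright enough to be tested. Each gene was read from its brightest probe set by mean log2 signal over all 10 arrays. The rule itself uses no measured diet difference, but the genes were chosen with earlier results of these data known. Counts over the set are therefore descriptions and not tests.

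The mammary glands came from female Sprague-Dawley rats of postnatal day 50 that had been fed 1 of 3 purified diets, and their RNA was hybridised to Affymetrix RAE230 oligonucleotide arrays. The diets were SPI (4 arrays, replicates 2, 3, 4 and 5), GEN (3 arrays, replicates 1, 3 and 5) and CAS (3 arrays, replicates 1, 2 and 3). By the series title GEN stands for genistein, an isoflavone of soy and a ligand of estrogen receptors. The labels do not expand SPI and CAS, which are known to mean soy protein isolate and casein, and CAS is used as the base diet. By the labels an array carried RNA pooled from the number 4 glands of 2 animals, except CAS 3, whose label names 7 animals. No label states a genotype, dose or length of feeding, and none gives an allele or transgene. The source is labelled epithelial cells, the labelling protocol speaks of whole gland, and markers of adipocytes, fibroblasts and endothelium were measured above the filter beside epithelial ones, so the RNA is described here as that of the gland. The labels also describe 3 labelled targets per RNA pool without saying which arrays share a pool, and the p-values measure the spread between these arrays, part of which may be technical.

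Before a cell divides, the MCM complex is loaded on origins of replication as the core of the DNA helicase, the RFC complex loads the sliding clamp PCNA, and primase and polymerases copy the strands. Cyclins with the kinase Cdk1 then drive entry into mitosis, and the anaphase-promoting complex ends it by having cyclin B degraded. At this age the rat mammary gland still holds growing end buds, whose epithelium divides, and genes of this kind are commonly read as a sign of how many cells are cycling. In RNA of whole tissue, fewer dividing cells and less of these RNAs per cell cannot be told apart.

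Many of these genes share short promoter elements, of which 3 were searched on both strands in the 250 bases before the annotated start. They were the CCAAT box (CCAAT), the cell cycle homology region or CHR (TTTGAA) and the E2F site (TTTCCCGC, TTTCGCGC, TTTGGCGC or TTTGCCGC). RefSeq promoters (build GRCr8) were matched for 38 of the 42 measured genes. A CCAAT box stood in 25 of the 38 (65.8%), against 34.0% of all 33469 promoters in the table and 35.4% of the 6554 that belong to genes tested here. An E2F site stood in 8 (21.1%, against 1.73% of all and 3.22% of tested genes' promoters). A CHR stood in 9 (23.7%, against 16.2% and 10.1%), while 8 (21.1%, against 5.87% and 3.95%) held both a CCAAT box and a CHR. E2F matches stood in 4 of the 5 MCM promoters and in 1 of 10 promoters of the mitotic genes, and a CHR in 1 of 5 and 3 of 10. A match to such short letters is a description of the sequence and not a binding site. The 6 promoters below are shown because they belong to genes whose values are given in full and hold these elements in different combinations; each is the 200 bases before the start, 5′ to 3′ on the gene's strand, with every match in capitals.
Mcm2, chr4:122918095-122918294, minus strand: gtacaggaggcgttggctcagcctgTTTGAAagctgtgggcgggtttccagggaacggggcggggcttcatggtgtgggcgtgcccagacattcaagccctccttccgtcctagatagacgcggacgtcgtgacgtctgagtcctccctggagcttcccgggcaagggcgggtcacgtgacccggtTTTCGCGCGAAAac
Mcm6, chr13:42404353-42404552, minus strand: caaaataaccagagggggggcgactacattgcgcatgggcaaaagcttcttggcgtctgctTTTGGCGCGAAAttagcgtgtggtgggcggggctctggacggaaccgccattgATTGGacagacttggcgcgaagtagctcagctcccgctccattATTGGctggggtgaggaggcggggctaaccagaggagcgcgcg
Cdk1, chr20:19265093-19265292, plus strand: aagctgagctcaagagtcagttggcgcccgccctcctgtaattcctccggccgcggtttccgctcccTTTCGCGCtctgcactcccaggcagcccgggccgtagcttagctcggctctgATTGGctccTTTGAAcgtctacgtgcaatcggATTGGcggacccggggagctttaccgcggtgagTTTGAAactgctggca
Ccnb2, chr8:79981659-79981858, minus strand: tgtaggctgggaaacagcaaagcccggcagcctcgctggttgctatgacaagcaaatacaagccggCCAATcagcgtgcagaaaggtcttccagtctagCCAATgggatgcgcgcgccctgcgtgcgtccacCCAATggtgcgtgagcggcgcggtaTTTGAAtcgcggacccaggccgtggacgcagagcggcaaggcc
Mki67, chr1:199952594-199952793, minus strand: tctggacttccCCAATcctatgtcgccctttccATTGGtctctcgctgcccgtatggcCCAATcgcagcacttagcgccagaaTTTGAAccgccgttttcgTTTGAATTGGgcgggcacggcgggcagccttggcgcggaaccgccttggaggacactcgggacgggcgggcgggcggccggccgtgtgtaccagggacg
Stmn1, chr5:151964979-151965178, plus strand: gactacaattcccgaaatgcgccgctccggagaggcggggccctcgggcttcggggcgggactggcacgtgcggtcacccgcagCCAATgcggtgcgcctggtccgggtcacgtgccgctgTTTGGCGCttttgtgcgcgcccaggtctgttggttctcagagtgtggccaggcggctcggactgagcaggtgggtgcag
In the 200 bases shown, Mcm2 holds a CHR far from the start and overlapping E2F matches on both strands just before it. Mcm6 holds overlapping E2F matches and CCAAT boxes. Cdk1 has all 3 elements, and Ccnb2, with 3 CCAAT boxes, has a CHR but no E2F site. Mki67 holds CCAAT boxes and CHRs, of which 1 pair overlaps, and Stmn1 a CCAAT box and an E2F site.

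Across the set, most genes were brighter on SPI and on GEN than on CAS, by small amounts, and no single gene passed the test. Of the 37 tested genes, 33 had a higher mean log2 signal on SPI than on CAS, with a median difference of 0.21, where 48.3% of all 7118 genes tested were higher and their median was -0.0093. Against CAS, 27 of 37 were higher on the GEN diet, with a median of 0.19, where 46.2% of all genes were higher and their median was -0.022. SPI and GEN are set against the same CAS arrays, so these counts are not independent of each other. Between SPI and GEN, 24 of 37 were higher on SPI, with a median of 0.084, beside 51.1% of all genes.

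The test was limma's moderated test on log2 signal with Benjamini-Hochberg adjustment over 9519 probe sets, with calls made at an adjusted p under 0.05. It called 0 of the 37 genes and 0 of the 9519 probe sets (0%) in each comparison, while the unadjusted p was under 0.05 for 459 probe sets (4.82%) between SPI and CAS, 561 (5.89%) between GEN and CAS and 757 (7.95%) between SPI and GEN. Without the intensity trend, limma also called 0, with 449, 537 and 761 at the unadjusted threshold. Of the 37, 4 were higher on SPI than on CAS at the unadjusted threshold and 0 lower, beside 1.60% of all genes higher and 3.40% lower. Against CAS, 5 were higher on the GEN diet and 0 lower, beside 2.49% higher and 3.41% lower. Between SPI and GEN, 3 were higher on SPI and 1 lower, beside 3.95% and 3.86%. Values of individual genes are therefore given below as measured differences that did not pass. The median 95% interval of these genes reached 0.45 to either side of a log2 difference between SPI and CAS or between SPI and GEN, and 0.48 between GEN and CAS.

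**Figure D1:**
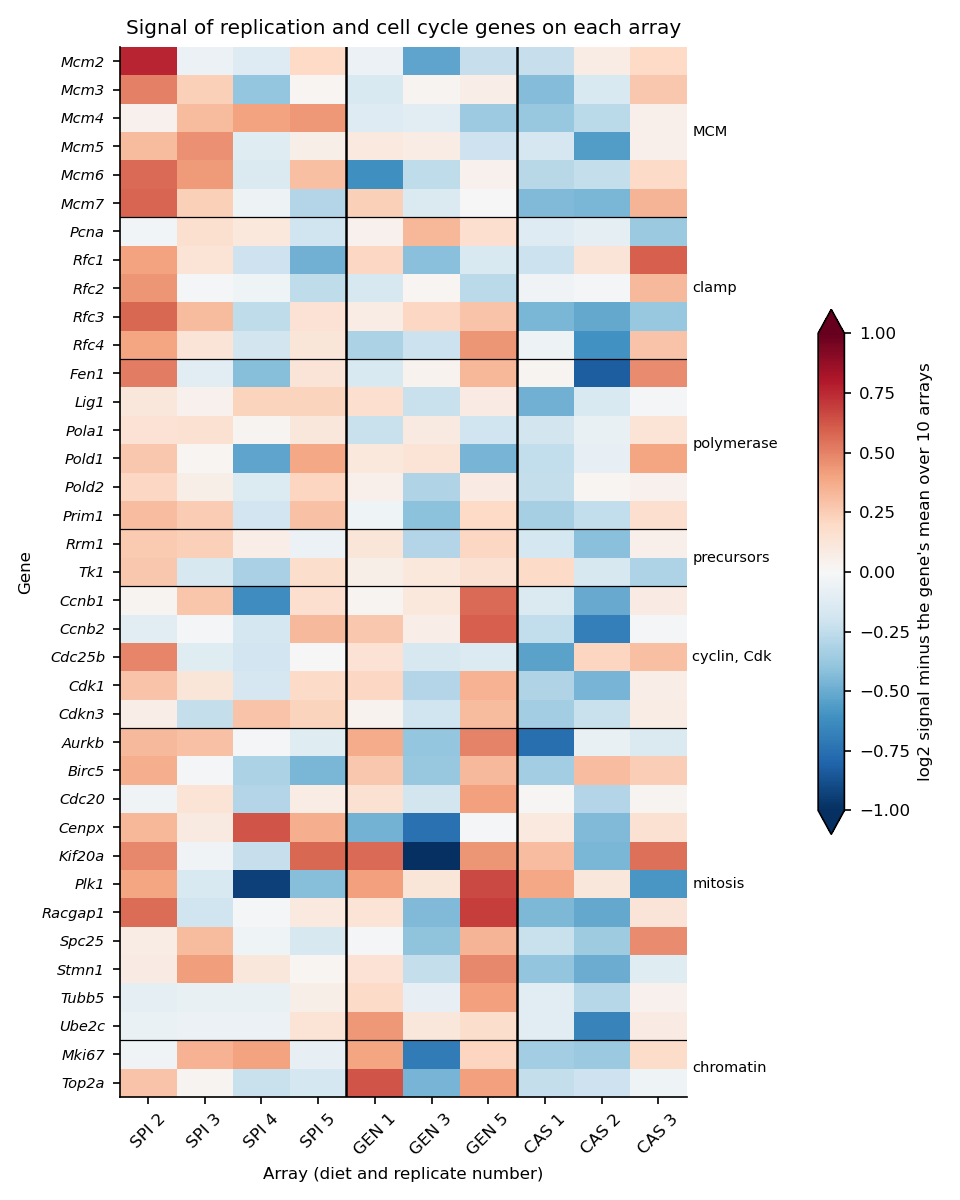
Log2 MAS5 signal of the 37 tested genes (rows, grouped by role) on the 10 arrays (columns: SPI, GEN, CAS), drawn as the difference from each gene's mean over the arrays, with the color scale ending at 1 to either side. CAS 1 and CAS 2 are low over most rows, while CAS 3 is the highest CAS array for 32 of the 37 genes.

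The heat map of all 37 genes shows that arrays of a diet were not alike. The mean log2 signal of the 37 genes was 8.96, 8.79, 8.57 and 8.75 on SPI 2, 3, 4 and 5, 8.77, 8.46 and 8.87 on GEN 1, 3 and 5, and 8.47, 8.41 and 8.79 on CAS 1, 2 and 3. The groups overlapped, since CAS 3 lay above every SPI array but SPI 2 and above GEN 1 and GEN 3. CAS 3, the array with the other pool size in its label, was the highest CAS array for 32 of 37 genes (86.5%), beside 45.3% of all genes. SPI 4 was the lowest SPI array for 20 (54.1%, beside 29.9% of all genes) and GEN 3 the lowest GEN array for 24 (64.9%, beside 37.5%). Leaving out CAS 3 gave a median of 0.37 for SPI against CAS and 0.29 for GEN against CAS, with 34 and 31 of the 37 genes higher. The SPI against CAS median was 0.15 without SPI 2 and 0.17 without CAS 2, with 27 and 24 of the 37 higher. The GEN against CAS median also moved to 0.071 without CAS 2, 0.12 without CAS 1, 0.083 without GEN 5 and 0.30 without GEN 3. In these 4 fits 24, 22, 24 and 29 of the 37 were higher on GEN. The SPI against GEN median had the other sign without GEN 3 (-0.064) or without SPI 2 (-0.024), and was 0.13 without GEN 5. Leaving out 1 array moved the difference by over 1.5 times or turned its sign for 33 of the 37 genes between SPI and CAS, 34 between GEN and CAS and 32 between SPI and GEN. The sign turned for 14, 14 and 18 of them. Values without 1 array are given below for some of these genes and groups, but not for all. A difference printed without such a value can move as much.

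The 6 subunits of the MCM helicase were higher on SPI than on either other diet by the diets' mean log2 signal. Averaged over the 6, CAS 3 (8.92) still lay above SPI 4 (8.67) and SPI 5 (8.86). CAS 1 (8.41) and CAS 2 (8.47) lay below every SPI array. All 6 were higher on SPI than on CAS, with a median log2 difference of 0.35, and all 6 were higher on SPI than on GEN, with a median of 0.33. Only 3 of the 6 were higher on GEN than on CAS, with a median of 0.043. The counts on the SPI diet were also 6 of 6 in both comparisons without CAS 3 or without SPI 4, and 5 of 6 against CAS and 4 of 6 against GEN without SPI 2, in fits chosen after seeing the data. The median for SPI against CAS was 0.22 without CAS 2, 0.23 without SPI 2 and 0.54 without CAS 3, and that for SPI against GEN was 0.21 without SPI 2. The GEN against CAS median lay between -0.085 without CAS 1 and 0.20 without CAS 3. The MCM median was the highest of the 7 roles in both SPI comparisons, but against CAS another role was higher without SPI 2, SPI 3 or CAS 1.

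Mcm4 had signals of 509.6, 618, 656 and 671 on SPI, 453, 459 and 385 on GEN and 381, 412 and 514 on CAS. Every SPI array lay above every GEN array, and SPI 2 lay just below CAS 3. Its log2 difference was 0.50 ± 0.16 for SPI against CAS (SE; limma adjusted p = 0.850) and -0.0028 ± 0.17 for GEN against CAS. Between SPI and GEN it was 0.50 ± 0.16 (limma adjusted p = 0.558). Mcm6 had signals of 727, 661, 445 and 605 on SPI, 321, 413 and 506 on GEN and 405, 416 and 562 on CAS. SPI 4 was the lowest of its diet and lay below GEN 5, and the other SPI arrays lay above all GEN and CAS arrays. The Mcm6 difference was 0.40 ± 0.21 for SPI against CAS and 0.56 ± 0.21 for SPI against GEN, with a 95% interval of 0.11 to 1.01 for the second.

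Mcm5 had signals of 418, 461, 309 and 348 on SPI, 358, 352 and 289.6 on GEN and 299, 227 and 347 on CAS, and a difference of 0.40 ± 0.19 for SPI against CAS. The groups overlapped, with CAS 2 the lowest of all arrays, and the value was 0.24 without it. Mcm2, which carries a histone-binding tail, had 564, 318, 303 and 381 on SPI, 318, 230.2 and 284 on GEN and 282, 349 and 382 on CAS. SPI 2 stood above all other arrays for Mcm2 and GEN 3 below them, and the other SPI arrays lay in the range of CAS. Its difference was 0.18 ± 0.22 for SPI against CAS and -0.29 ± 0.24 for GEN against CAS. Between SPI and GEN it was 0.46 ± 0.22. Without SPI 2 the Mcm2 values were -0.012 against CAS and 0.27 against GEN. Mcm3 and Mcm7 had the smallest SPI against GEN differences of the 6, at 0.11 ± 0.22 and 0.089 ± 0.24. Their differences for SPI against CAS were 0.20 ± 0.22 and 0.31 ± 0.24, and CAS 3 was the highest CAS array for both. Without 1 array these 2 values reached 0.036 (Mcm3, without CAS 1) and 0.15 (Mcm7, without SPI 2), and 0.39 and 0.57 without CAS 3.

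**Figure D2:**
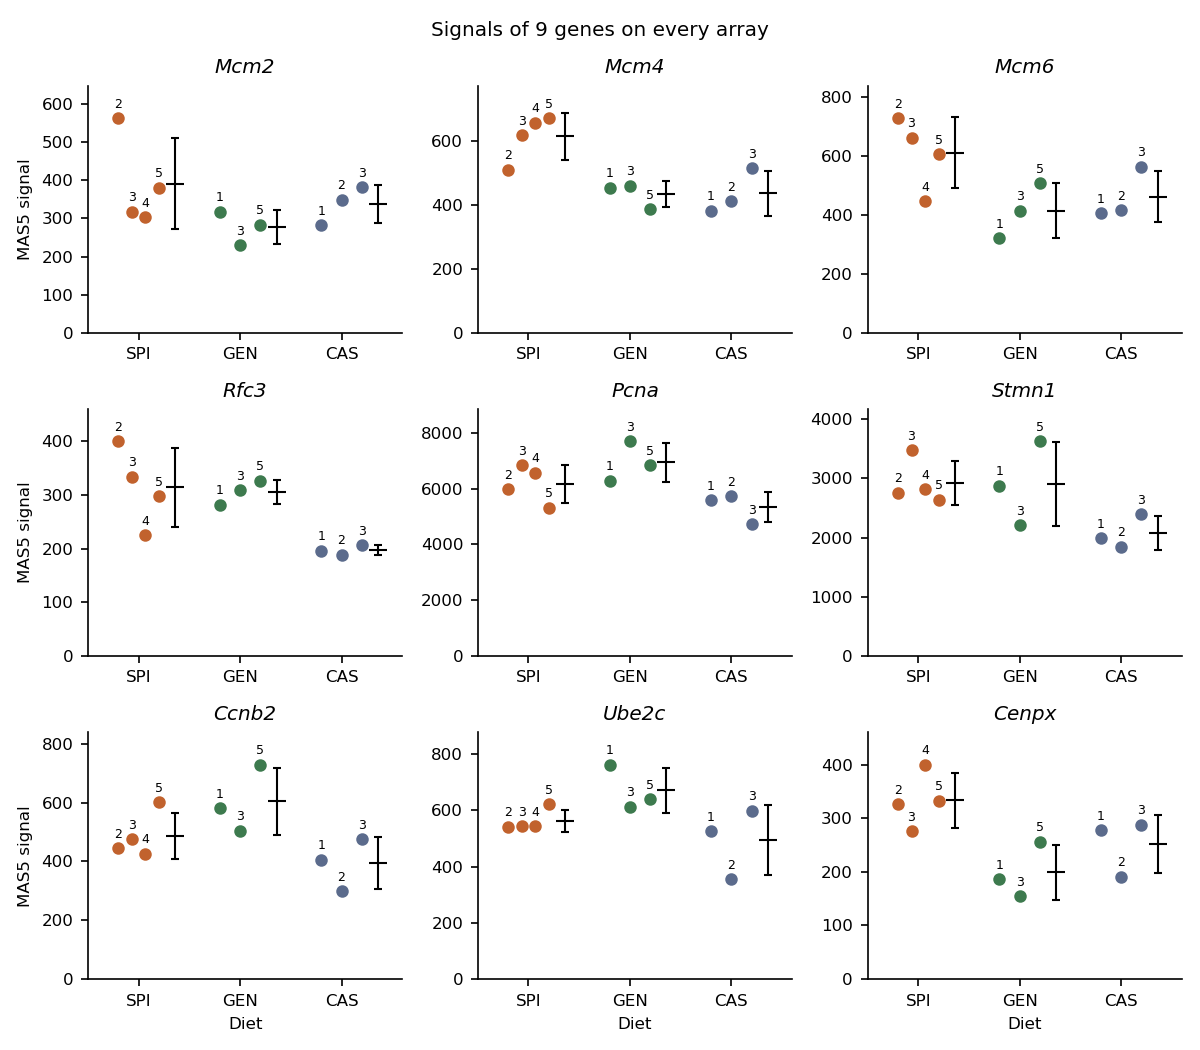
MAS5 signal (linear scale, y axis from 0) of 9 genes on every array by diet, with the array's replicate number above each point and the mean and SD of the diet as a bar beside it. For Rfc3 all SPI and GEN points lie above all CAS points, and for Mcm4 all SPI points lie above all GEN points.

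Of the clamp and its loader, Rfc3 was the gene with the highest difference from CAS on both diets. Rfc3, a small subunit of the loader, had signals of 399.6, 334, 225 and 297 on SPI, 282, 309 and 326 on GEN and 196, 188 and 207 on CAS. All SPI and all GEN arrays lay above the CAS arrays, which were close together. The log2 difference was 0.64 ± 0.20 for SPI against CAS (limma adjusted p = 0.827) and 0.63 ± 0.21 for GEN against CAS (limma adjusted p = 0.825). Genes whose arrays did not overlap and were higher on SPI than on CAS made up 1.87% of all genes, and of the 37 there were 3: Rfc3, Lig1 and Stmn1. None of the 37 was lower on SPI without overlap, beside 2.73% of all genes. Higher on GEN than on CAS without overlap were 5.32% of all genes and 4 of the 37: Rfc3, Pcna, Ccnb2 and Ube2c. Lower on GEN in that way were 0 of the 37, beside 5.65% of all genes.

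Pcna, the clamp itself, had signals of 5983, 6839, 6580.2 and 5316 on SPI, 6289, 7700.4 and 6855 on GEN and 5592, 5729 and 4729.9 on CAS. The GEN arrays all lay above the CAS arrays, and SPI 5 lay below CAS 1 and CAS 2. Its difference was 0.38 ± 0.14 for GEN against CAS (limma adjusted p = 0.825) and 0.21 ± 0.13 between SPI and CAS. CAS 3, the highest CAS array for most of the set, was the lowest of all 10 for Pcna.

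The other 3 tested loader subunits had lower differences than Rfc3, with no test between subunits. Rfc1, the large subunit, had 503, 419, 329.7 and 272 on SPI, 438, 285 and 342 on GEN and 327, 416 and 575 on CAS, with differences of -0.21 ± 0.25 for SPI against CAS and -0.29 ± 0.26 for GEN against CAS. The arrays overlapped widely, CAS 3 was the highest of the 10, and the SPI against CAS value was 0.0066 without it. A second tested Rfc1 probe set read -0.13 ± 0.15 for SPI against CAS and -0.0555 ± 0.16 for GEN against CAS. Another Rfc1 probe set, under the filter, read -0.57 and 0.22. Rfc2 had 624, 453, 446 and 385 on SPI, 411, 466 and 381 on GEN and 449, 453 and 576 on CAS, with differences of -0.06 ± 0.18 and -0.23 ± 0.19 against CAS. Its SPI against CAS value turned to 0.012 when arrays were centred on their median. Rfc4 was higher on both diets, with differences of 0.24 ± 0.25 and 0.10 ± 0.26 and a 95% interval of -0.30 to 0.77 for the first. Without CAS 2 these were -0.0023 and -0.15.

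The 6 tested genes of primase, the polymerases and strand joining were all higher on SPI than on CAS, with a median of 0.15, and 4 of 6 were higher on GEN, with a median of 0.028. On SPI the count was 4 of 6 without SPI 2 or without CAS 2, and the median was 0.33 without CAS 3 and 0.25 without SPI 4. On GEN the count was 2 of 6 without CAS 1 or CAS 2 and 6 of 6 without CAS 3, with medians of -0.065, -0.048 and 0.15. Lig1, the ligase that joins Okazaki fragments, had signals of 632, 602, 683 and 682 on SPI, 658, 501 and 619 on GEN and 419, 526 and 578 on CAS. All SPI arrays lay above all CAS arrays, and the GEN arrays spanned both. Its log2 difference was 0.37 ± 0.16 for SPI against CAS, with a 95% interval of 0.031 to 0.70 (limma adjusted p = 0.987), and 0.23 ± 0.17 for GEN against CAS. Without CAS 1 these were 0.23 and 0.095.

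Prim1, the catalytic subunit of primase, had 773, 741, 545 and 764 on SPI, 605, 468 and 717 on GEN and 496, 525 and 701 on CAS. SPI 4 stood apart below the other SPI arrays, which were above all others. The difference was 0.30 ± 0.19 for SPI against CAS and 0.25 ± 0.19 for SPI against GEN. The first was 0.45 without CAS 3, and the second 0.086 if GEN 3 was left out and 0.39 if GEN 5 was. The polymerase subunits Pola1, Pold1 and Pold2 and the flap endonuclease Fen1 had SPI against CAS differences between 0.017 (Pold1) and 0.15 (Pola1), and between -0.093 (Pold1) and 0.18 (Fen1) for GEN against CAS.

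Of the enzymes that make DNA precursors, Rrm1, the large subunit of ribonucleotide reductase, had a difference of 0.31 ± 0.17 for SPI against CAS and 0.19 ± 0.18 for GEN against CAS. Tk1, the thymidine kinase of dividing cells, had 0.082 ± 0.19 and 0.20 ± 0.20. A second and dimmer Tk1 probe set, under the filter, read -0.53 and -1.08. These values were -0.28 without SPI 2 and -0.25 without GEN 3, the dimmest array of each diet for that probe set.

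Of the 5 tested cyclins, Cdks and their regulators, all were higher on SPI than on CAS, with a median of 0.25, and 4 were higher on GEN, with a median of 0.32. The SPI median was 0.16 without CAS 2, and the GEN median was 0.19 without GEN 5, 0.21 without CAS 2 and 0.49 without GEN 3. Ccnb2, a B-type cyclin, had signals of 444, 476, 426 and 602 on SPI, 581, 504 and 729 on GEN and 406, 299 and 475 on CAS. All GEN arrays lay above all CAS arrays, while SPI arrays overlapped both. The log2 difference was 0.63 ± 0.21 for GEN against CAS, with a 95% interval of 0.18 to 1.08 (limma adjusted p = 0.825), and 0.32 ± 0.20 for SPI against CAS. It was -0.31 ± 0.20 for SPI against GEN.

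Ccnb1, the other B-type cyclin, had 288, 342, 183 and 316 on SPI, 287, 303 and 418 on GEN and 255, 198 and 297 on CAS. The diets overlapped, with GEN 5 the highest and SPI 4 the lowest array, and the differences were 0.15 ± 0.24 for SPI against CAS and 0.42 ± 0.26 for GEN against CAS. The first was -0.0033 without CAS 2 and 0.35 without SPI 4, and the second 0.26 without GEN 5. A second Ccnb1 probe set read 0.21 ± 0.27 for SPI against CAS and 0.72 ± 0.29 for GEN against CAS. Cdk1, the kinase that B-type cyclins activate, had 631, 562, 460.4 and 589 on SPI, 597, 422 and 659.6 on GEN and 419, 376 and 542 on CAS. CAS 1 and CAS 2 were below every SPI array and every GEN array, and CAS 3 was within both ranges. The Cdk1 difference was 0.34 ± 0.19 for SPI against CAS and 0.32 ± 0.20 for GEN against CAS. The phosphatases Cdkn3 and Cdc25b had 0.25 ± 0.19 and 0.046 ± 0.25 for SPI against CAS, and 0.22 ± 0.20 and -0.045 ± 0.27 for GEN against CAS.

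**Figure D3:**
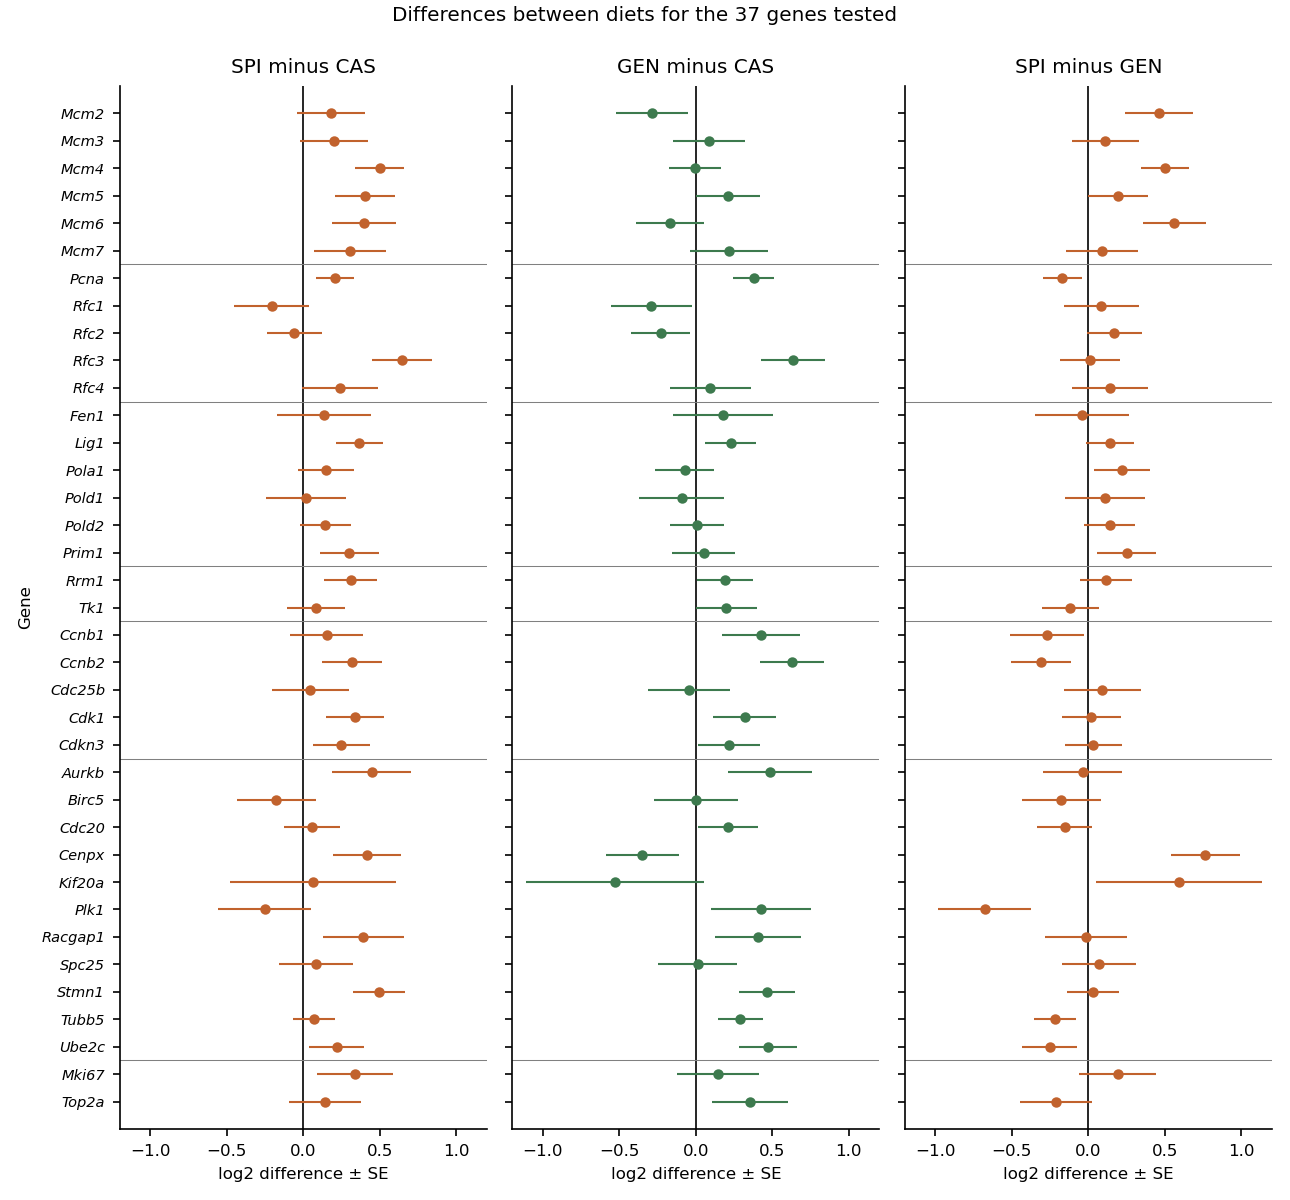
Log2 difference with its standard error for each of the 37 tested genes, ordered by role, in 3 panels, 1 per comparison, with 0 marked as a line. The MCM subunits lie right of 0 in the SPI against CAS and SPI against GEN panels and on both sides of it in GEN against CAS, and Cenpx and Plk1 stand at opposite ends of the SPI against GEN panel.

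The plot of differences by role shows that the genes of mitosis, the spindle and cytokinesis had no even pattern. Of 11 tested, 9 were higher on SPI than on CAS and 9 on GEN than on CAS, with medians of 0.082 and 0.29, and 4 of 11 were higher on SPI than on GEN, with a median of -0.038. These values moved in both directions. The SPI against CAS median was -0.015 without CAS 2, where the count was 4 of 11, and 0.34 without CAS 3, 0.21 without SPI 4 and 0.14 to 0.15 without SPI 3, SPI 5 or CAS 1. It was 0.16 with quantile normalization, 0.15 with arrays centred on their median and 0.22 with the replicate block. The GEN against CAS median was 0.13 without GEN 5, 0.18 with the block and 0.42 if GEN 3 was left out. Between SPI and GEN the median was -0.31 without GEN 3, where 1 of 11 was higher on SPI, and 0.13 without GEN 5, where 6 of 11 were; the count was also 6 of 11 without SPI 4.

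Stmn1, which destabilises microtubules, had signals of 2759, 3474, 2813 and 2640.0 on SPI, 2875, 2212 and 3625 on GEN and 1986, 1847 and 2389.8 on CAS. All SPI arrays lay above all CAS arrays, and GEN 3 lay below CAS 3. The difference was 0.49 ± 0.17 for SPI against CAS (limma adjusted p = 0.941) and 0.47 ± 0.18 for GEN against CAS. Ube2c, a ubiquitin-conjugating enzyme of the anaphase-promoting complex, had 542, 543, 543 and 622 on SPI, 763, 613 and 639.9 on GEN and 527, 356 and 599 on CAS. All GEN arrays lay above all CAS arrays, with GEN 3 close to CAS 3. Its difference was 0.47 ± 0.19 for GEN against CAS and 0.22 ± 0.18 between SPI and CAS. Without CAS 2 these were 0.25 and -0.0003.

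Cenpx, a small protein of the centromere, showed the highest SPI against GEN difference of the set. Its signals were 326, 275, 400.0 and 332 on SPI, 186, 154 and 256 on GEN and 277, 191 and 288 on CAS. All SPI arrays lay above all GEN arrays, as for Mcm4, and these 2 of the 37 stood beside 4.40% of all genes. None of the 37 was lower on SPI than on GEN without overlap, beside 4.30%. The difference was 0.77 ± 0.22 for SPI against GEN, with a 95% interval of 0.28 to 1.25 (limma adjusted p = 0.499), 0.41 ± 0.22 between SPI and CAS and -0.35 ± 0.24 between GEN and CAS.

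Plk1, a kinase of mitotic entry, ran the other way, with 326, 223, 129.9 and 184 on SPI, 329, 269.7 and 391 on GEN and 324, 267 and 165 on CAS. SPI 4 was the lowest array and GEN 5 the highest, and the SPI arrays spread widely. Its difference was -0.68 ± 0.30 for SPI against GEN (limma adjusted p = 0.614), -0.25 ± 0.30 between SPI and CAS and 0.43 ± 0.33 between GEN and CAS. Without CAS 3 these last 2 values were -0.53 and 0.15, and without SPI 4 the value between SPI and CAS was -0.034. Aurkb, the kinase of the chromosomal passenger complex, had 246, 241, 195 and 181 on SPI, 254, 150.5 and 278 on GEN and 117, 187 and 178 on CAS. CAS 1 was the lowest of all arrays and GEN 3 was below 2 of the CAS arrays, and the differences were 0.45 ± 0.26 and 0.48 ± 0.28 against CAS. Without CAS 1 they were 0.23 and 0.27, and without GEN 3 the second was 0.76.

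Birc5, the survivin subunit of that complex, had 301, 232, 188 and 170.3 on SPI, 282, 180.2 and 292 on GEN and 184, 289 and 278 on CAS, with a difference of -0.18 ± 0.26 for SPI against CAS and 0.0021 ± 0.28 for GEN against CAS. The diets overlapped over nearly their whole range, and without 1 array the first value lay between -0.38 and -0.057 and the second between -0.20 and 0.23. Kif20a, a kinesin of the late spindle, had 262, 183, 160.1 and 279.7 on SPI, 279, 41.1 and 255 on GEN and 233, 137 and 275 on CAS. Its difference of -0.53 ± 0.58 for GEN against CAS rested on GEN 3, without which it was 0.37. The tubulin Tubb5, the APC activator Cdc20, the kinetochore protein Spc25 and Racgap1, of the cleavage furrow, had SPI against CAS differences between 0.056 (Cdc20) and 0.39 (Racgap1), and between 0.011 (Spc25) and 0.41 (Racgap1) for GEN against CAS.

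Mki67 encodes Ki-67, the antigen stained to count cycling cells. It had signals of 671, 874, 905 and 648 on SPI, 901, 422 and 794 on GEN and 539, 531 and 778 on CAS. GEN 3 was the lowest of the 10 arrays, while GEN 1 was close to the highest, and CAS 3 lay in the range of SPI. The difference was 0.34 ± 0.25 for SPI against CAS, with a 95% interval of -0.20 to 0.88, and 0.15 ± 0.27 for GEN against CAS. The second was 0.48 if GEN 3 was left out and -0.066 if GEN 1 was. The first was 0.52 without CAS 3. Top2a, the topoisomerase that untangles replicated chromosomes, had 467, 391, 329 and 341 on SPI, 594, 278 and 512 on GEN and 326, 332 and 373 on CAS. GEN arrays were both the highest and the lowest, and the difference was 0.35 ± 0.25 for GEN against CAS and 0.14 ± 0.23 between SPI and CAS. Leaving out GEN 3 gave 0.68 for the GEN value, leaving out GEN 1 gave 0.13, and the SPI value was 0.039 without SPI 2. A second Top2a probe set read 0.73 ± 0.34 for GEN against CAS, with all GEN arrays (219.9, 237 and 402) above the CAS arrays (129, 213 and 166), and 0.17 ± 0.31 for SPI against CAS.

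Of the measured genes, 5 lay under the filter and were not tested: Aurka, Bub1b, Ccne1, Prim2 and Tyms, with mean signals over the arrays of 31.5 (Bub1b) to 113 (Aurka). Probe sets named for several genes held Hmgb2 and Rrm2, which were left out. No probe set was named for Ccna2, Cdk2, Kif11, Nusap1, Pole2, Rfc5 or Ttk in the annotation used here.

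Other genes of the same pathways, taken from lists, were also counted, and none passed. Of the genes for origin licensing, the replication fork and DNA precursors, 19 of 46 names were tested, with 16 higher on SPI than on CAS (median 0.13) and 14 higher on GEN than on CAS (median 0.18). Rnaseh2a, a subunit of the enzyme that cuts RNA from DNA, had a difference of 0.51 ± 0.18 for SPI against CAS, and Rnaseh2c, another subunit of it, 0.44 ± 0.18 for GEN against CAS, with all GEN arrays above all CAS arrays. Pola2, a subunit of polymerase alpha, had -0.45 ± 0.21 for GEN against CAS and -0.27 without CAS 3. Of a second list of mitotic genes, 18 of 59 names were tested, with 14 higher on SPI than on CAS (median 0.099), 15 higher on GEN than on CAS (median 0.20) and 6 higher on SPI than on GEN (median -0.11). Cks2 and Cks1b, small subunits that bind Cdks, had 0.37 ± 0.14 and 0.48 ± 0.19 for GEN against CAS. Of 4 tested checkpoint genes, 2 were higher on SPI than on CAS (median -0.040) and 3 higher on GEN than on CAS (median 0.23). The kinase Wee1, which holds Cdk1 inactive, had 0.49 ± 0.40 for GEN against CAS, or 0.15 without CAS 2. Gadd45a, a stress-induced gene, had 0.34 ± 0.25, or 0.036 without CAS 3. Hus1, of the clamp that senses damage, had -0.54 ± 0.21, with all GEN arrays below all CAS arrays, or -0.35 without GEN 5.

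**Figure D4:**
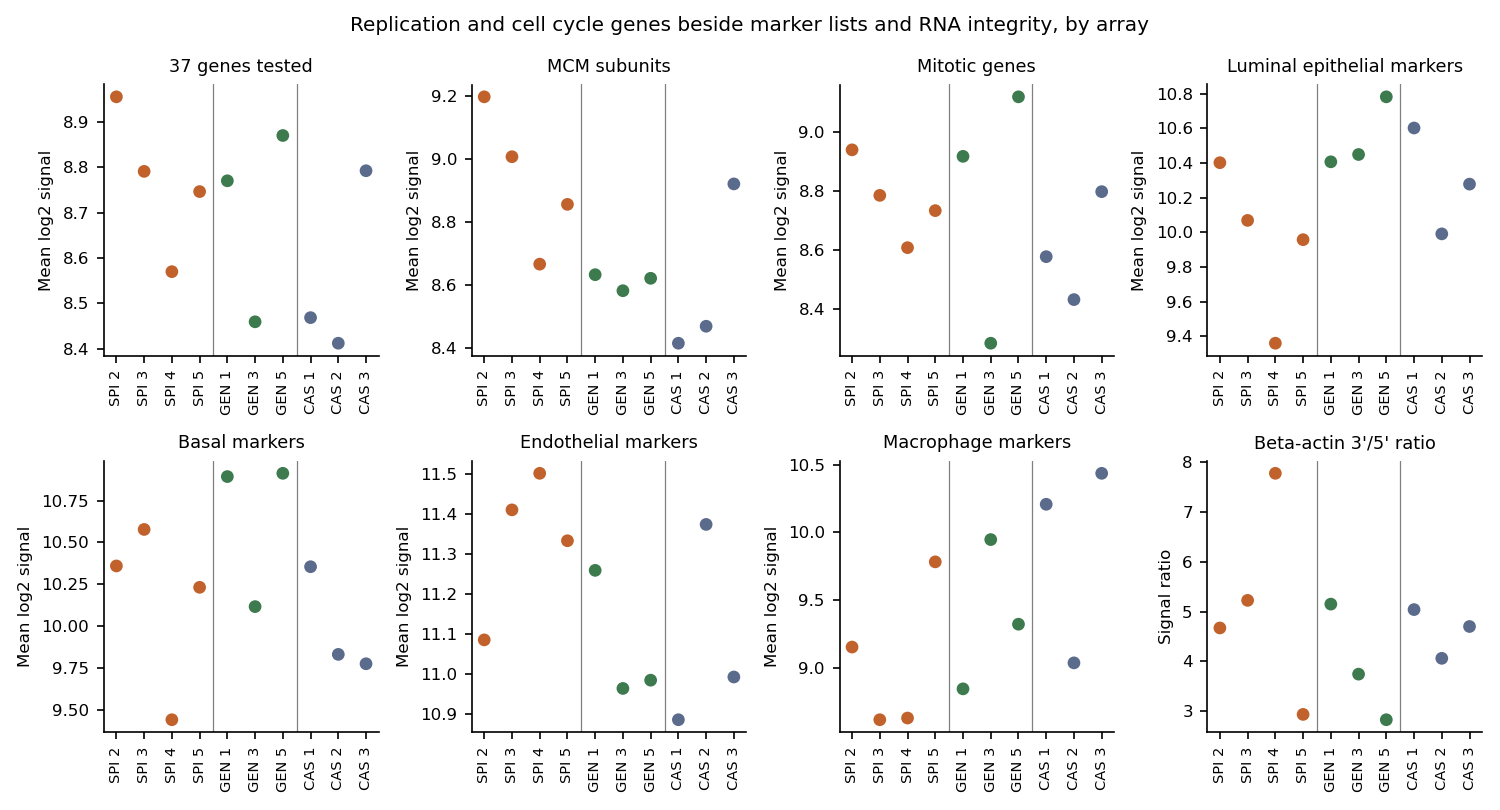
Mean log2 signal of the 37 tested genes, of the MCM and mitotic genes and of 4 marker lists (luminal, basal, endothelial, macrophage) on each of the 10 arrays, grouped as SPI, GEN and CAS, with the 3' to 5' signal ratio of beta-actin in the last panel. SPI 4 has the highest actin ratio, at 7.77.

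Markers of the cell types in the gland and signs of RNA quality differed between arrays too, as the plot of list means by array shows. Of 14 luminal epithelial names 13 were on the array, and their summed signal ran from 9933 to 19694 on SPI, from 21149 to 28000.0 on GEN and from 15299 to 24906 on CAS. The mean log2 signal of the 12 tested differed by -0.34 between SPI and CAS and by 0.26 between GEN and CAS. The SPI value was -0.15 without SPI 4 and -0.19 without CAS 1, and the GEN value was 0.11 without CAS 2, 0.14 without GEN 5 and 0.41 without CAS 1. Among the SPI arrays SPI 2 was the highest and SPI 4 the lowest both for the 37 genes (8.96 and 8.57) and for the luminal markers (10.40 and 9.36). On GEN, GEN 5 was the highest for both, but GEN 3 was the lowest for the 37 genes (8.46) and GEN 1 for the luminal markers (10.41). On CAS, CAS 2 was the lowest for both, but CAS 3 was the highest for the 37 genes (8.79) and CAS 1 for the luminal markers (10.60). For 9 basal markers the summed signal ran from 12050.8 to 17191 on SPI, 10306 to 17309 on GEN and 9919 to 12832 on CAS. Endothelial markers summed to 23917 to 30729 on SPI, 21622 to 25553 on GEN and 20306 to 27366 on CAS, and macrophage markers to 4233 to 9033.5 on SPI, 5444 to 9711 on GEN and 5581 to 13977 on CAS. For fibroblast markers the sums were 46094 to 86618.5 on SPI, 60378 to 74394 on GEN and 63202 to 115198 on CAS. Skeletal muscle markers summed to 2431 to 3227 on SPI, 3075 to 3323 on GEN and 2970.2 to 9704 on CAS, with CAS 1 far above the other 9 arrays. Lymphocyte markers ran from 1320.0 to 1797 on SPI, 1726 to 2419 on GEN and 1809 to 2781 on CAS, and adipocyte markers from 20527 to 24180.5 on SPI, 21483 to 23473 on GEN and 19870.3 to 24076 on CAS. The mean log2 signal was taken over the tested markers only, which were 7 basal, 9 endothelial, 9 macrophage, 11 fibroblast, 7 muscle, 4 lymphocyte and 7 adipocyte genes. In that mean the macrophage list differed by -0.85 between SPI and CAS and -0.52 between GEN and CAS, or by -0.58 and -0.25 without CAS 3 and -1.28 and -0.95 without CAS 2. The muscle list differed by -0.73 and -0.35, or by -0.18 and 0.19 without CAS 1, and the fibroblast list by -0.58 and -0.49, or by -0.34 and -0.25 without CAS 1. The lymphocyte list differed by -0.48 and -0.29, the second being -0.15 without CAS 3. The basal list differed by 0.17 and 0.65, of which the first was 0.40 without SPI 4 and 0.024 without SPI 3. Endothelial markers differed by 0.25 (0.15 without CAS 1) and -0.015 and adipocyte markers by -0.025 and -0.15. None of these markers was at 0 on any array, and their part in the results above was not tested. The 3' to 5' ratio of beta-actin ran from 2.94 to 7.77 on SPI, 2.83 to 5.15 on GEN and 4.06 to 5.04 on CAS. With that ratio as a covariate the median of the 37 genes was 0.21 between SPI and CAS, 0.16 between GEN and CAS and 0.075 between SPI and GEN.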

How the data were processed

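The authors deposited intensity values, linear and unlogged, for every probe set of the 10 arrays. MAS5 computed them, per the submitters' processing notes (version not given in the sources used here). Every array had a trimmed mean near 500 (500.12 to 500.14, without 2% at each end), so differences in total RNA between arrays are not visible. Groups came from the sample titles.

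Of 15923 probe sets, 57 controls were left out. Signals under 1 (0.0637%) were set to 1, log2 was taken, and the lowest 40% by mean were dropped, which left 9519 probe sets with a geometric mean signal of 162 or more. They held 7118 genes by the platform annotation; of the 15866 probe sets before that filter, 12783 had 1 gene symbol, 312 several and 2771 none, and none was named from several symbols. All 10 arrays entered 1 limma fit (limma 3.58.1 under R 4.3.3, eBayes with trend, no replicate block) with 7 residual degrees of freedom, and p-values were adjusted by Benjamini-Hochberg over 9519 probe sets. Errors are standard errors of the fit. The number of arrays limits the precision. A difference between diets is of mean log2 signal.

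The genes and the lists were chosen with earlier results of these data known, so no p is given for a list. Values on every array are given for Pcna, Mki67, Top2a, Cdk1 and MCM genes as needed, for the 6 highest and 4 lowest differences in each comparison, and for genes whose diet did not overlap with CAS; from each list of other pathway genes, the 3 with the smallest unadjusted p in each comparison with CAS could be named. The model was tested on simulated data for 9519 probe sets, with independent normal noise and 100 planted changes each of 1 and 2 log2 units. For SPI against CAS it recovered 74% of changes of 1 log2 unit and 98% of 2, for GEN against CAS 67% and 97%, and for SPI against GEN 71% and 96%. Alternatives were another scaling, filter, floor, offset, fit or set of arrays. Promoter sequences are RefSeq's (GRCr8).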

Additional observations from a re-analysis of the deposited data

Results flagged for a closer look

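In 3 of the 37 tested genes, 1 SPI array lay far from the other SPI arrays relative to their whole range. Prim1 had a signal of 545.2 on SPI 4, and the gap to its nearest neighbour was a share of 0.881 of the range of log2 signal. Tubb5 had 3123.3 on SPI 5, with a share of 0.893, and Ube2c had 622.4 on SPI 5, with a share of 0.978. The limit was Dixon's 95% critical value for 4 arrays, which chance passes in about 1 in 20 groups. GEN and CAS, with 3 arrays each, were not examined in this way.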

How the results depend on the processing

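No setting called any of the 37 genes. The probe sets called were 0 in each comparison, and leaving out 1 array gave 0 to 2 for SPI against CAS, 0 to 1 for GEN against CAS and 0 to 1 for SPI against GEN, which had 2 with the arrays of its own 2 diets only. The median of the 37 genes ran from 0.15 to 0.37, 0.071 to 0.30 and -0.064 to 0.13 over fits without 1 array. With the replicate number as a block it was 0.25, 0.16 and 0.11. Deviations of same-numbered arrays in 2 diets correlated at -0.18 to 0.16 over 6 pairs, beside -0.40 to 0.30 over 27 other pairs. So few pairs do not settle whether the numbers pair the arrays. At an unadjusted p under 0.05 the block gave 270, 416 and 286 probe sets. Without the filter on dim probe sets there were 776, 884 and 1213. For SPI against CAS, 146 probe sets were higher and 313 lower at that p, but 300 and 174 with arrays centred on their median; for SPI against GEN these were 352 and 405, but 612 and 272. Signs turned for Plk1 (SPI against CAS 0.0739 with the block), for Rfc1 (-0.40 to 0.0066 without 1 array) and for Rfc2 (SPI against CAS 0.012 with median centring, 0.024 with the block, -0.20 to 0.058 without 1 array). For Kif20a, leaving out 1 array gave -1.01 to 0.37 for GEN against CAS and -0.31 to 1.07 for SPI against GEN. The cause was not tested. Of the 51 names, 9 had no probe set of their own and 5 were too dim to be tested.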

Other observations

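Of the G1 cyclins, CDK inhibitors and Rb-E2F genes, 21 of 38 names were tested, and 12 of the 21 were higher on SPI than on CAS (median 0.077) and 12 on GEN than on CAS (median 0.041), with 0 called by limma in either comparison. Cdkn1a, the CDK inhibitor p21, had signals of 1714, 4428, 5969.9 and 2359.5 on SPI, 2914, 3467 and 2111 on GEN and 2553, 1614 and 1188 on CAS. Its log2 difference was 0.92 ± 0.38 for SPI against CAS and 0.71 ± 0.40 for GEN against CAS, with SPI 3 and SPI 4 the highest arrays. Ccnd2, cyclin D2, had 0.41 ± 0.17 for SPI against CAS and -0.24 ± 0.18 for GEN against CAS. Leaving out 1 array gave 0.27 to 0.57 for the first and -0.39 to -0.083 for the second. Rb1, the retinoblastoma protein, had -0.32 ± 0.15 for SPI against CAS, with all SPI arrays below all CAS arrays (2.73% of all genes), and 0.30 ± 0.16 for GEN against CAS.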
